A study of Mus musculus with 69 samples.

Results

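The genes described here are 9 genes of bone morphogenetic protein (BMP) signalling: the ligand genes Bmp2, Bmp4 and Bmp7, the antagonist gene Nog, and the target genes Id1, Id2, Id3, Msx1 and Msx2. They were taken by gene symbol from a count table of 55367 symbols, and all 9 were found. Their values were read in all 69 bulk RNA-seq libraries of the series.

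The study asked how wild-type (WT) cells are eliminated beside p53-deficient cells in mosaic mouse gastruloids, which are aggregates of mouse embryonic stem (mES) cells that elongate and form cell types of the trunk. Every line came from E14Tg2A mES cells and carried a nuclear fluorescent reporter: WT–mCherry cells held H2B–mCherry, and WT–emiRFP cells held H2B–emiRFP670. The p53KO–emiRFP cells were derived from the WT–emiRFP clone by a homozygous frameshift in Trp53, the gene of p53. Each of the 3 lines was 1 clone, so that clone and genotype cannot be told apart beyond the shared origin of the emiRFP lines. At 0 h each line was sampled as mES cells grown in serum and LIF. Gastruloids were seeded from 150 WT–mCherry cells with either 150 WT–emiRFP cells or 25 p53KO–emiRFP cells, all received the Wnt agonist CHIR99021 from 48 h to 72 h, and the colours were sorted apart at 48, 72, 96, 120 and 144 h. This gave 4 populations per time point: WT–mCherry and WT–emiRFP cells that had grown beside each other, WT–mCherry cells beside p53KO cells, and p53KO–emiRFP cells beside WT cells. With 3 populations at 0 h there were 23 groups of 3 libraries.

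The libraries held between 26722541 and 72981570 counts, with a median of 53098728, and the lowest total among gastruloid libraries was 44049258. Expression is given as normalized counts, the counts divided by a size factor per library, and values of replicates 1, 2 and 3 are printed in that order. Mean Trp53 expression in p53KO–emiRFP cells lay between 8.33% and 11.4% of that in WT–emiRFP cells over the 6 time points. The mES libraries carried the naive pluripotency genes they should, with Klf4, Klf2, Esrrb, Tfcp2l1, Nanog, Zfp42, Tbx3 and Prdm14 together at 169304 to 210353 normalized counts per library. One histone gene, H2bc14, was high in both emiRFP lines and at 6.25 to 8.27 normalized counts in WT–mCherry mES cells, as earlier results of these data had shown. It was therefore read as a measure of emiRFP-line RNA in sorted WT–mCherry libraries, without a test of whether those cells also expressed it.

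BMPs are secreted dimers of the TGF-β family that assemble type I and type II receptor kinases, which phosphorylate SMAD1, SMAD5 and SMAD9. These bind SMAD4 and raise transcription of targets such as the Id genes, whose helix–loop–helix proteins block differentiation factors of the bHLH class, and the Msx homeobox genes. Noggin, the product of Nog, binds BMP dimers outside the cell and keeps them from their receptors. In the mouse embryo BMPs are known for patterning the posterior and lateral mesoderm, the dorsal neural tube and the germ line, and in serum culture they help to hold mES cells undifferentiated.

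In the GRCm38 gene models, Bmp2 lies at chr2:133552159-133562885, Id1 at chr2:152736251-152737410 and Bmp7 at chr2:172868012-172940321. Bmp4 lies at chr14:46383520-46390669, Nog at chr11:89300638-89302332, Id2 at chr12:25093799-25097140, Id3 at chr4:136143497-136145755, Msx1 at chr5:37820485-37824583 and Msx2 at chr13:53466884-53473074. Counts were summed over exons, and only Bmp4 shared exonic bases with another gene model, Gm15217 on the opposite strand, which averaged 0.9 normalized counts. To compare genes with each other, values were divided by exonic length. In p53KO–emiRFP cells at 144 h the level per kilobase was highest for Id3 at 1918, Id2 at 1404 and Id1 at 904 normalized counts per kb. Bmp7 at 326 and Msx1 at 287 normalized counts per kb came next, and Bmp2, Bmp4, Msx2 and Nog lay between 41.7 and 73.6. Bmp7 was the most abundant of the ligand messages per length in gastruloids from 72 h on, and Bmp4 was the most abundant in mES cells, at 487 against 50.7 normalized counts per kb for Bmp7 in the WT–emiRFP line.

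The RefSeq table on GRCm38.p6 held start sites for 5 of the 9 genes, Bmp4, Id2, Id3, Msx1 and Msx2. The 250 bases upstream of the start are printed for Id2 and Id3, which ended highest in p53KO–emiRFP cells at 144 h, and for Msx1 and Msx2, which went opposite ways there. Each is written 5′ to 3′ along the gene, and capitals mark GGCGCC and GGAGCC (or GGCTCC on the other strand), letters that BMP-activated SMADs are known to bind.
Id2 promoter, chr12:25096093-25096342, minus strand: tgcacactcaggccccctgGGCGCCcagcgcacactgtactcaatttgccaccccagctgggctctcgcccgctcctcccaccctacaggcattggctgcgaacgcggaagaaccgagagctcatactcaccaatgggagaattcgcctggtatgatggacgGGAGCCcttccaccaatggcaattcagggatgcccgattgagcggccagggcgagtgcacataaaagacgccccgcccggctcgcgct
Id3 promoter, chr4:136143572-136143821, plus strand: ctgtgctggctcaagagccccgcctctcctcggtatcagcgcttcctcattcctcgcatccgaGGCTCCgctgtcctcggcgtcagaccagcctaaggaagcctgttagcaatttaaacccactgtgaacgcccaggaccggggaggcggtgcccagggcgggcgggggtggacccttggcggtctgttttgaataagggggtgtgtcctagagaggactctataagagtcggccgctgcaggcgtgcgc
Msx1 promoter, chr5:37824586-37824835, minus strand: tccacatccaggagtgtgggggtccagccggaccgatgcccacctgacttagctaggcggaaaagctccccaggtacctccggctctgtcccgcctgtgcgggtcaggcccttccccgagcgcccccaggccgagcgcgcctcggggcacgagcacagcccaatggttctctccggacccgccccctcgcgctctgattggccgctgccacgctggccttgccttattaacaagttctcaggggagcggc
Msx2 promoter, chr13:53472781-53473030, minus strand: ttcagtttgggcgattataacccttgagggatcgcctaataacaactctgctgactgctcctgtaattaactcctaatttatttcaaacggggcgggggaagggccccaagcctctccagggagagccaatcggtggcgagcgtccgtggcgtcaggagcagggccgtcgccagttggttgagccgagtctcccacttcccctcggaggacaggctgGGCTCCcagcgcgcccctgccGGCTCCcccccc

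GGCGCC stood once in the Id2 window and in none of the other 4, and 9.6% of all 32851 windows of this length held it on either strand. GGAGCC, on either strand, stood once in the windows of Id2, Id3 and Bmp4, in 2 places in that of Msx2 and not in that of Msx1, against 26.0% of all windows. The shorter SMAD letters GTCT were in 82.9% of all windows and in those of Bmp4, Id2, Id3 and Msx2. No 2 of these motifs can overlap in full, and a match is a description of letters only. The windows of Id2, Id3 and Msx2 lie within the span of the gene models given above, which start farther upstream than the RefSeq start used here.

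Over the 6 time points the 9 genes moved far in WT cells, and they did not move together. The WT libraries are those of every WT population of a time, WT–mCherry cells beside p53KO cells included, and steps were tested between the mean of the WT populations at one time and at the time before, in one fit of all 69 libraries. Libraries of WT populations sorted from the same gastruloids or experiment entered this fit as independent. The errors and p-values of the steps may therefore be too small. From 0 to 48 h 1 of the 9 genes rose and 7 fell, while 70.3% of all tested genes changed. From 48 to 72 h 5 rose and 3 fell (66.8% of all genes changed), and from 72 to 96 h 8 rose and none fell (58.7%). From 96 to 120 h 3 rose and 4 fell (56.9%), and from 120 to 144 h 2 rose and 5 fell (55.5%). With most genes changing at each step, the counts of members say little by themselves, and the levels are given by gene.

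Among the ligands, Bmp4 was highest in mES cells, ranging from 619.9 to 1100.2 with a median of 953 normalized counts in the 6 WT libraries. It fell to 109 to 146 with a median of 129 at 48 h in 9 libraries, with no overlap (log2 fold change of -2.79 ± 0.08, edgeR adjusted p = 1.7e-36). A second, lower peak of 222 to 327 with a median of 293 followed at 96 h (log2 fold change of 1.53 ± 0.08, edgeR adjusted p = 3.6e-24). Bmp7 did not change at the first step beyond the threshold, and rose from a range of 135 to 234 at 48 h to one of 852 to 1241 at 72 h, after the Wnt pulse (log2 fold change of 2.57 ± 0.07, edgeR adjusted p = 2.9e-38). Its later ranges were 988 to 1309 at 96 h and 872 to 1198 at 144 h. Bmp2 was scarce early, at 2.37 to 7.92 normalized counts at 48 h, and climbed to 75.5 to 139.8 at 120 h. Its 3 rising steps after 48 h had log2 fold changes of 2.08 ± 0.24, 1.19 ± 0.16 and 0.91 ± 0.13, all past the threshold. Its fall from 120 to 144 h, with log2 fold change of -0.30 ± 0.13, edgeR adjusted p = 0.038, rested on replicate 3, without which the adjusted p was 0.91. Leaving out replicate 3 also ended the fall of Bmp7 from 96 to 120 h (edgeR adjusted p = 0.098), and the rise of Bmp4 from 120 to 144 h ended without replicate 1 (0.077) or replicate 3 (0.065).

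Nog was near the limit of counting at 48 and 72 h, with 1.19 to 8.92 and 0.991 to 8.59 normalized counts. At 96 h all 9 WT libraries stood at 41.1 to 75.3, all above those of 72 h (log2 fold change of 3.94 ± 0.20, edgeR adjusted p = 5.9e-25), and by 144 h the range was 21.01 to 52.0 (log2 fold change of -0.93 ± 0.13, edgeR adjusted p = 1.6e-08).

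The Id genes shared a fall between mES cells and 48 h, and differed after it. Id1 ranged from 1556 to 3164 with a median of 2307 normalized counts in WT mES cells and from 27.3 to 59.8 with a median of 43.7 at 48 h, the deepest fall of the set (log2 fold change of -5.70 ± 0.15, edgeR adjusted p = 1.4e-38). It then recovered in a pair of steps to 1206 to 1745 at 96 h, where its log2 fold change from 72 h was 2.33 ± 0.11. Id2 went on falling to 189 to 246 at 72 h, ranged from 313 to 441 at 96 h, and reached 1485 to 2602 at 120 h (log2 fold change of 2.47 ± 0.09, edgeR adjusted p = 3.8e-30). Id3 fell least of the 3 at the first step, to 424 to 640.1 at 48 h, and stood at 1174 to 1563 at 72 h (log2 fold change of 1.28 ± 0.08, edgeR adjusted p = 4.2e-20). Its small rise from 72 to 96 h was not called without replicate 2 (edgeR adjusted p = 0.45). From 120 to 144 h its log2 fold change of 0.17 ± 0.08 passed with the replicate number as a block (edgeR adjusted p = 0.021) and not without it (0.061).

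The Msx genes moved in opposite directions at every step but that from 72 to 96 h, where both rose. The Msx1 fall from 48 to 72 h (log2 fold change of -0.33 ± 0.12, edgeR adjusted p = 0.012) did not pass without replicate 1, where the edgeR adjusted p was 0.094. Msx1 stood in WT mES cells at 28.4 to 64.2 normalized counts, and it rose to 184 to 268 at 48 h while Msx2 fell from a range of 119 to 358 to one of 10.4 to 25.6 (log2 fold change of -3.62 ± 0.15, edgeR adjusted p = 2.6e-29). Between 72 and 96 h Msx1 rose from a range of 152 to 223 to one of 1323 to 2541 (log2 fold change of 3.41 ± 0.11, edgeR adjusted p = 2.4e-33). It fell from 96 to 120 h (log2 fold change of -0.75 ± 0.10, edgeR adjusted p = 2e-09), when Msx2 rose (log2 fold change of 1.31 ± 0.11, edgeR adjusted p = 1.1e-15). It fell again between 120 and 144 h, from a range of 662 to 2106 to one of 117 to 373 (log2 fold change of -2.51 ± 0.11, edgeR adjusted p = 6.9e-27), with no library of one time reaching those of the other. Msx2 rose at each step from 48 h on and ended at 257 to 403. The small fall of Msx1 from 48 to 72 h ended without replicate 1 (edgeR adjusted p = 0.094).

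**Figure D1:**
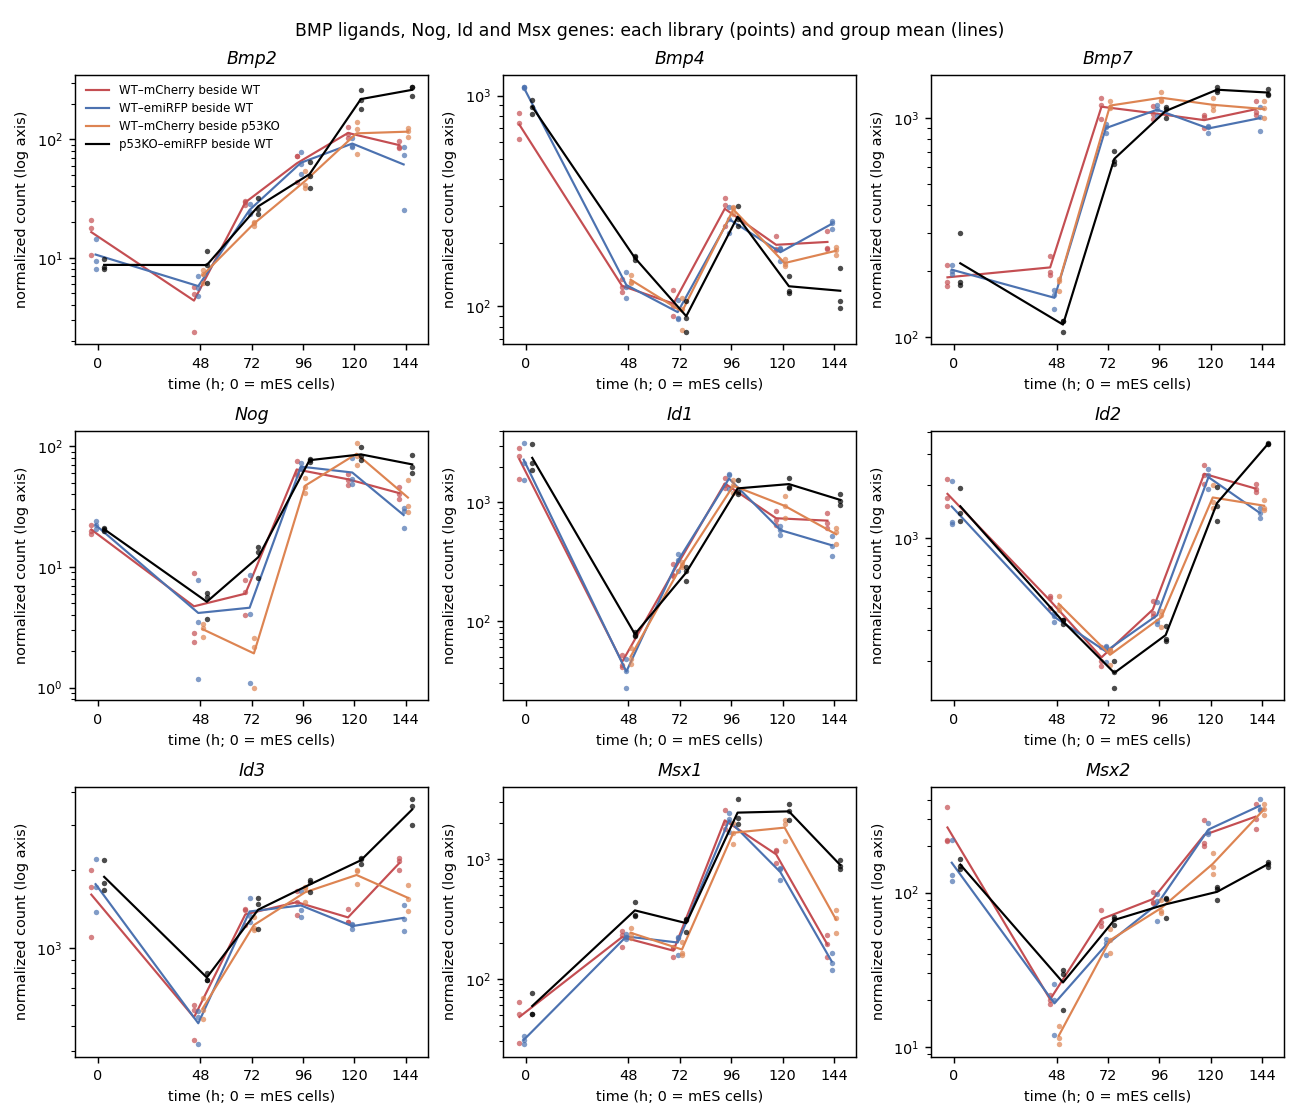
Normalized counts (log axis) of the 9 genes against time, with points for the 3 libraries of each group and lines through group means; at 0 h the points are mES cells of each line. Msx1 in WT cells drops from 1232.9 to 215 normalized counts on average between 120 and 144 h, and at 144 h the p53KO–emiRFP points lie outside the WT range for all 9 genes.

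For loss of p53, p53KO–emiRFP cells were set against WT–emiRFP cells of the same time, which share the clone of origin but from 48 h on come from other gastruloids, with other neighbours and another number of cells seeded. Genotype and gastruloid cannot be told apart in this comparison. At 144 h all 9 genes differed: 7 were higher in p53KO–emiRFP cells (Msx1, Bmp2, Nog, Id3, Id2, Id1 and Bmp7) and 2 were lower (Msx2 and Bmp4). At this time 65.4% of all 19391 tested genes differed, and the count of members is to be read against that share. At 120 h 5 were higher and 3 lower, against 51.0% of all genes. The counts were smaller before that, with 4 higher and 1 lower of 7 tested at 48 h (22.1% of all genes), 2 higher and 1 lower of 8 at 72 h (29.1%) and 1 higher of 9 at 96 h (23.3%). In mES cells none of the 9 was called by edgeR, where 6.14% of all genes were, and 1, Msx1, was called by DESeq2. At an unadjusted edgeR p under 0.05 stood 2 of the 9, beside 3320 of 18395 tested genes. Bulk libraries cannot tell fewer cells of a type from less RNA per cell, and this holds for each difference given here. The p-values measure the spread over 3 replicate libraries, which the study took from 3 experiments separated in time, and an exact test of 3 libraries against 3 could not go below 0.1.

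The WT–mCherry cells of the same gastruloids give a second reference, which differs from p53KO–emiRFP cells in clone as well as genotype and was not tested. Against it the ratio of p53KO means was closer to 1 than against WT–emiRFP cells for each of the 9 genes at 120 and at 144 h. At 120 h the ratio was 1.37 for Msx1 within gastruloids and 3.21 against WT–emiRFP cells, 1.53 and 2.44 for Id1, and 1.14 and 1.80 for Id3. For Nog it was 0.988 and 1.41, and for Msx2 0.659 and 0.394. At 144 h it was 2.85 and 6.38 for Msx1, 2.26 and 4.27 for Bmp2 and 2.25 and 2.47 for Id2, and all 9 genes were on the same side of 1 against both references. These WT–mCherry libraries held H2bc14, the marker of emiRFP-line RNA, at 3.01% to 7.46% of its p53KO–emiRFP level at 120 h and at 2.39% to 16.9% at 144 h, and its part in the ratios was not tested.

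The ligand genes parted. Bmp2 stood at 278, 232 and 275 normalized counts in p53KO–emiRFP cells at 144 h and at 73.3, 85.3 and 25.4 in WT–emiRFP cells. Every p53KO library was above every WT–emiRFP library, and replicate 3 of WT–emiRFP was far below its fellows (log2 fold change of 2.11 ± 0.28, edgeR adjusted p = 1.4e-05). At 120 h the values were 180.1, 214 and 261 against 87.8, 85.9 and 102, again without overlap (log2 fold change of 1.24 ± 0.21, edgeR adjusted p = 0.00017). Bmp4 was lower instead, at 98.0, 106 and 151 against 255, 234 and 249.5 normalized counts at 144 h, with no overlap (log2 fold change of -1.06 ± 0.15, edgeR adjusted p = 3.4e-05). At 120 h Bmp4 read 118, 139 and 116 against 164, 187 and 189.9 (log2 fold change of -0.54 ± 0.12, edgeR adjusted p = 0.002). Bmp7 was higher by a smaller margin, with 1390.1, 1316 and 1339 against 919.8, 915 and 858 at 120 h (log2 fold change of 0.59 ± 0.07, edgeR adjusted p = 1.2e-05) and 1359, 1279 and 1286 against 1007, 1121 and 872 at 144 h (log2 fold change of 0.39 ± 0.10, edgeR adjusted p = 0.0026).

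Bmp4 and Bmp7 had differed the opposite way at 48 h. There Bmp4 was higher in p53KO–emiRFP cells, at 171, 173 and 165 against 123, 146 and 109 normalized counts (log2 fold change of 0.42 ± 0.12, edgeR adjusted p = 0.019), and Bmp7 was lower, at 119, 106 and 119 against 155, 135 and 165 (log2 fold change of -0.40 ± 0.12, edgeR adjusted p = 0.029). Neither pair of groups overlapped. The call for Bmp4 was lost without replicate 1 (edgeR adjusted p = 0.15) or replicate 3 (0.13), and that for Bmp7 without replicate 1 (0.16), 2 (0.079) or 3 (0.13). At 72 h Bmp7 was still lower, at 706, 617 and 635 against 939, 852 and 910.4 (log2 fold change of -0.46 ± 0.09, edgeR adjusted p = 0.00092), and kept its call without each replicate. The change of the p53KO difference between 48 and 120 h, tested in the fit of all libraries, passed for 4 of the 9 members (36.6% of all genes), both of these genes among them, at -0.96 ± 0.20 for Bmp4 (edgeR adjusted p = 7e-05) and 0.99 ± 0.17 for Bmp7 (edgeR adjusted p = 4.4e-06) on the log2 scale.

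Nog, the antagonist, was called at 144 h. Its values then were 66.8, 84.8 and 60.5 normalized counts in p53KO–emiRFP cells and 29.1, 30.5 and 21.01 in WT–emiRFP cells, with no overlap (log2 fold change of 1.40 ± 0.25, edgeR adjusted p = 0.00019). At 120 h they were 82.3, 97.6 and 76.8 and 53.7, 48.8 and 79.1, where replicate 3 of WT–emiRFP overlapped the p53KO libraries (log2 fold change of 0.50 ± 0.21, edgeR adjusted p = 0.062). With the replicate number as a block the adjusted p at 120 h was 0.045, and without replicate 3 it was 0.012. Counts were too low for a test at 48 and 72 h. The difference at 144 h less that at 120 h passed for 5 of the 9 members (16.9% of all genes), and for Nog it was 0.90 ± 0.31 (edgeR adjusted p = 0.037), and this call was lost without replicate 1 (0.13), 2 (0.053) or 3 (0.39). With the block 6 passed, where 4646 of all 21121 tested genes did. The addition was Bmp4 (-0.52 ± 0.19), with an edgeR adjusted p of 0.041 against 0.051 without the block.

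Each Id gene had its own course. Id1 was at 1331, 1590.1 and 1356 normalized counts in p53KO–emiRFP cells at 120 h and at 533, 629 and 590.1 in WT–emiRFP cells (log2 fold change of 1.29 ± 0.14, edgeR adjusted p = 3.3e-06). It kept that distance at 144 h, with 1025, 1171 and 950.2 against 426, 525 and 355 (log2 fold change of 1.27 ± 0.16, edgeR adjusted p = 6.5e-06). Neither time showed overlap. Id1 had also been higher at 48 h, at 74.6, 81.4 and 77.1 against 27.3, 37.8 and 47.7 (log2 fold change of 1.04 ± 0.20, edgeR adjusted p = 0.0014), a difference between low levels. At 96 h it read 1229, 1168 and 1537 against 1306, 1745 and 1710.2, with overlap, a difference of -0.27 ± 0.13 that passed with the replicate block (edgeR adjusted p = 0.0016, and 0.15 without it), and it was lower in each pair of replicates.

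Id2 changed sides between 120 and 144 h. At 120 h it read 1949.9, 1252 and 1519.7 normalized counts in p53KO–emiRFP cells and 2257, 1899 and 2465 in WT–emiRFP cells. The groups overlapped, but p53KO was below WT in each of the 3 pairs of replicates (log2 fold change of -0.49 ± 0.15, edgeR adjusted p = 0.017), and without replicate 3 the adjusted p was 0.16. At 144 h the values were 3419.7, 3447 and 3403 against 1294, 1481 and 1379, and the lowest p53KO library stood above the highest WT library (log2 fold change of 1.31 ± 0.07, edgeR adjusted p = 1.6e-09). The shift of the difference from 120 to 144 h was 1.80 ± 0.21 on the log2 scale (edgeR adjusted p = 2.9e-09), and it stayed past the threshold without each replicate in turn. Between the same times Id2 fell in WT cells (log2 fold change of -0.37 ± 0.09). At 72 and 96 h Id2 was already lower in every pair of replicates, with log2 fold changes of -0.40 ± 0.15 and -0.37 ± 0.13, and passed with the block (edgeR adjusted p = 0.0078 and 0.0018) but not without it (0.056 and 0.053).

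Id3 was higher at 48 h (755, 754 and 798 against 542, 568 and 424 normalized counts), with log2 fold change of 0.59 ± 0.12, edgeR adjusted p = 0.0023. At 72 h the means were 1407 and 1385, and the difference was 0.02 ± 0.10. It was called again at 96 h (log2 fold change of 0.27 ± 0.09, edgeR adjusted p = 0.05), a call lost without replicate 1 (0.41) or replicate 3 (0.06). From then on the distance widened, through 2212, 2122 and 2221 against 1183, 1225 and 1239 at 120 h (log2 fold change of 0.85 ± 0.07, edgeR adjusted p = 2e-07) to 3766, 3554 and 2988 against 1461, 1300.5 and 1164 at 144 h (log2 fold change of 1.39 ± 0.11, edgeR adjusted p = 5.6e-08). All p53KO libraries of both times lay above all WT–emiRFP libraries of the same time.

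Msx1 had the largest difference of the set at 120 and at 144 h. It stood at 2507, 2855 and 2130.0 normalized counts in p53KO–emiRFP cells at 120 h against 826, 843 and 662 (log2 fold change of 1.69 ± 0.16, edgeR adjusted p = 7.4e-07). At 144 h it stood at 820.4, 976 and 873 against 165, 136 and 117 (log2 fold change of 2.67 ± 0.19, edgeR adjusted p = 2.4e-08). Msx1 fell in both populations over this step, and the p53KO range at 144 h overlapped the WT–emiRFP range of 120 h. Msx1 was also higher in p53KO–emiRFP cells at 48 h, at 337, 340.2 and 440.0 against 216, 237 and 224 (log2 fold change of 0.73 ± 0.13, edgeR adjusted p = 0.00085). At 72 h it read 318, 311 and 246 against 221, 223 and 158 (log2 fold change of 0.54 ± 0.15, edgeR adjusted p = 0.015), and that call was lost without replicate 1 (0.095) or replicate 2 (0.068).

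At 96 h, when Msx1 peaked in WT cells, the p53KO–emiRFP and WT–emiRFP groups overlapped, at 2195, 1963 and 3156 and 1690.0, 2175 and 2436 normalized counts. The difference of 0.22 ± 0.19 passed with the replicate block (edgeR adjusted p = 0.046) and not without it (0.46). Id3 was the single member edgeR called at 96 h without the block (23.3% of all genes), and it called 4 with it (38.6% of all genes). DESeq2 called Id3 (adjusted p = 0.025) and Id2 (0.037). In mES cells Msx1 read 51.2, 50.9 and 75.7 against 33.4, 28.4 and 30.7; the groups did not overlap and edgeR gave an adjusted p of 0.068, or 0.036 without replicate 1.

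Msx2 was lower at 120 and 144 h, the times at which Msx1 differed most. At 120 h it read 106, 89.4 and 108 normalized counts in p53KO–emiRFP cells against 241, 282 and 247 in WT–emiRFP cells (log2 fold change of -1.34 ± 0.17, edgeR adjusted p = 1.7e-05). At 144 h it read 154, 158 and 147 against 345, 403 and 348 (log2 fold change of -1.25 ± 0.14, edgeR adjusted p = 2.2e-06). At 72 h, by contrast, Msx2 was higher, at 67.8, 61.8 and 69.9 against 50.3, 46.9 and 39.5 (log2 fold change of 0.54 ± 0.18, edgeR adjusted p = 0.033), a call lost without replicate 1 (0.13), 2 (0.09) or 3 (0.2) and in DESeq2 (adjusted p = 0.074). The p53KO difference at 120 h was lower than that at 48 h by a tested amount for Msx2 (-1.77 ± 0.36, edgeR adjusted p = 6.7e-05) and higher for Msx1 (0.96 ± 0.26, edgeR adjusted p = 0.0024; 0.088 without replicate 2).

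**Figure D2:**
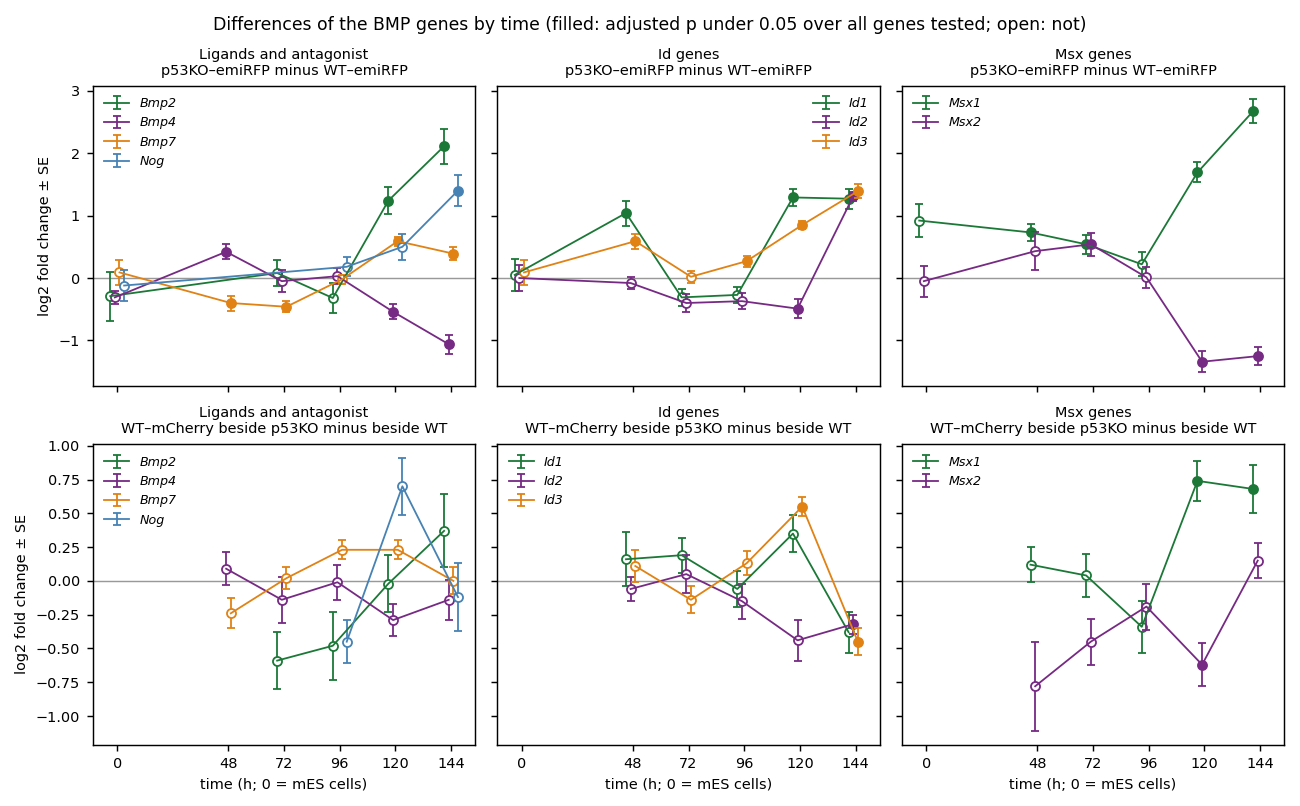
Log2 fold change ± SE of each gene by time, for p53KO–emiRFP minus WT–emiRFP cells (top) and for WT–mCherry cells beside p53KO minus beside WT cells (bottom, on a narrower axis); filled points have an adjusted p under 0.05 over all genes tested. In the top row Msx1 climbs to 2.67 and Bmp2 to 2.11 at 144 h while Msx2 and Bmp4 lie at -1.25 and -1.06, and Id2 crosses from -0.49 to 1.31.

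Libraries of p53KO–emiRFP and WT–emiRFP cells did not overlap for 5 of 7 tested members at 48 h (36.4% of all tested genes), 3 of 8 at 72 h (41.9%), 2 of 9 at 96 h (37.3%), 7 of 9 at 120 h (60.2%) and 9 of 9 at 144 h (71.4%). In mES cells they did not for 2 of 9 (23.8%), Msx1 and Bmp4. The WT–emiRFP population is 1 of 3 WT populations at each time, and the p53KO–emiRFP cells were set against all of them. At 144 h the 3 p53KO–emiRFP libraries lay outside the range of all 9 WT libraries for all 9 genes, above it for 7 and below it for 2. Of all tested genes 49.8% did so. At 120 h 7 of the 9 genes did (37.9% of all genes), with Nog and Id2 overlapping the WT range. At 48 h 5 of 7 tested genes did (19.3%), namely Id1, Id3, Msx1 and Bmp4 above and Bmp7 below, and at 72 h 2 of 8 did (25.1%), Msx1 above and Bmp7 below. At 96 h and in mES cells none of the 9 did, against 19.2% and 13.9% of all genes.

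Because related genes diverged, their ratio within a library was read as well, per length. The ratio of Bmp2 to Bmp4 was 1.79, 1.39 and 1.15 in p53KO–emiRFP cells at 144 h and 0.182, 0.231 and 0.0643 in WT–emiRFP cells. Beside p53KO cells WT–mCherry cells had 0.451, 0.405 and 0.349, and beside WT cells 0.282, 0.327 and 0.239. In p53KO–emiRFP cells alone Bmp2 message exceeded Bmp4 message at 144 h. The ratio of Msx1 to Msx2 at 144 h was 5.63, 6.52 and 6.27 in p53KO–emiRFP cells, 1.13, 0.922 and 0.797 in their WT–mCherry neighbours, and 0.691, 0.652 and 0.628 and 0.508, 0.357 and 0.356 in the WT–mCherry and WT–emiRFP cells of all-WT gastruloids. These 4 groups did not overlap in that order. A ratio shows unequal change of 2 genes and does not say which of them moved.

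**Figure D3:**
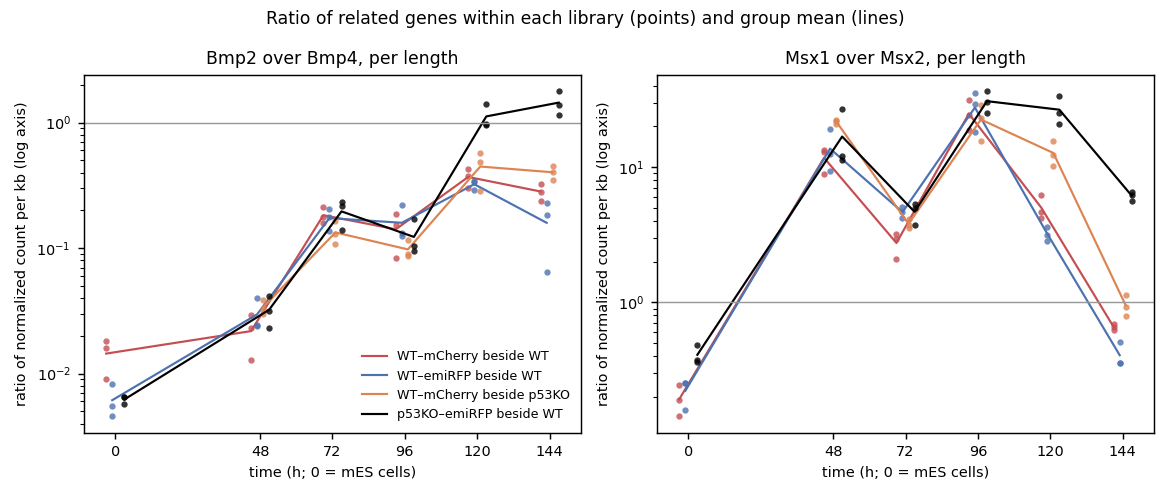
Ratio of Bmp2 to Bmp4 (left) and of Msx1 to Msx2 (right) in normalized counts per kilobase on a log axis, with points for libraries and lines through group means; the grey line marks equal levels. At 120 and 144 h both ratios are highest in p53KO–emiRFP cells, where Bmp2 over Bmp4 averages 1.12 and 1.44 and Msx1 over Msx2 averages 26.6 and 6.14.

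The second comparison asks how expression in WT cells differs with the neighbour: WT–mCherry cells were sorted from both kinds of gastruloid. At 120 h Id3 and Msx1 were higher and Msx2 was lower beside p53KO cells, 3 of 9 genes where 5.94% of all genes differed. At 144 h Msx1 was higher and Id2 and Id3 were lower, 3 of 9 against 25.6%. At 48, 72 and 96 h edgeR called none of the 9, while 0.0736%, 0.559% and 3.92% of all genes were called. At an unadjusted edgeR p under 0.05 stood 2 members each time, beside 1068 of 17662, 1744 of 17714 and 3639 of 18356 tested genes. DESeq2 called none at 48 and 72 h, where it gave no adjusted p for some members, and called 1, Bmp7, at 96 h. With the replicate block 2 passed at 96 h, where 20.8% of all genes did, Bmp7 upward (edgeR adjusted p = 0.0022) and Msx1 downward (0.005).

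Msx1 read 1968, 2106 and 1408 normalized counts beside p53KO cells at 120 h and 1178, 1173 and 932 beside WT cells, without overlap (log2 fold change of 0.74 ± 0.15, edgeR adjusted p = 0.011). The p53KO–emiRFP cells of the same gastruloids were higher still, at 2507, 2855 and 2130.0. At 144 h WT–mCherry cells had 373, 325 and 240.1 against 196, 231 and 153, again without overlap (log2 fold change of 0.68 ± 0.18, edgeR adjusted p = 0.014). The call at 120 h was lost without replicate 1 (0.22) or 2 (0.053), and that at 144 h without replicate 1 (0.13) or 2 (0.05). At 96 h, before these rises, Msx1 had been lower beside p53KO cells in each of the 3 pairs of replicates, at 1660.5, 1323 and 1984 against 1777, 1989.6 and 2541.

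Id3 was higher beside p53KO cells at 120 h, at 2005, 1984 and 1761 against 1265, 1420.5 and 1256 normalized counts (log2 fold change of 0.55 ± 0.07, edgeR adjusted p = 0.00061). At 144 h it was lower, at 1751, 1391 and 1549 against 2221, 2166 and 2009.6 (log2 fold change of -0.45 ± 0.10, edgeR adjusted p = 0.0072). Neither time had overlap, and the direction was the same in all 3 pairs of replicates at each time. The call at 120 h was lost without replicate 1, where the log2 fold change was 0.49 (edgeR adjusted p = 0.075), and that at 144 h without replicate 2, where it was -0.36 (0.12). Id2 was lower at 144 h, at 1642, 1475 and 1446 against 1884, 1816 and 2008 (log2 fold change of -0.32 ± 0.07, edgeR adjusted p = 0.0036; 0.07 without replicate 3). Id1 was below its control without overlap at 144 h, at 611, 559 and 449 against 612, 821 and 672, and passed with the block (edgeR adjusted p = 0.0078) but not without it (0.085). So at 144 h Id2 and Id3 stood on opposite sides of their own clones' controls in the 2 populations of one gastruloid: Id2 and Id3 were higher in p53KO–emiRFP cells than in WT–emiRFP cells and lower in their WT–mCherry neighbours than in WT–mCherry cells beside WT cells. The side depends on the reference clone. The neighbours' means of 1521 for Id2 and 1564 for Id3 lay above those of WT–emiRFP cells, 1385 and 1308.

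Msx2 was lower beside p53KO cells at 120 h, at 133, 181 and 147 against 202, 298 and 210.2 normalized counts (log2 fold change of -0.62 ± 0.16, edgeR adjusted p = 0.041), and that call was lost without replicate 1 (0.28) or 3 (0.16). At 144 h the values were 349, 373 and 319 and 300.3, 375 and 257, a difference of 0.15 ± 0.13. For the ligands and Nog edgeR without the block called no difference at any time, while DESeq2 called Bmp7 at 96 h (adjusted p = 0.04) and at 120 h (0.034) and Nog at 120 h (0.036). Nog at 120 h was 83.5, 106 and 69.9 against 52.8, 47.8 and 59.1, with all libraries beside p53KO cells above the others (edgeR adjusted p = 0.066). Bmp7 at 120 h likewise did not overlap, at 1131, 1229 and 1092 against 1008, 1032 and 897 (edgeR adjusted p = 0.073). In all, 7 of the 9 genes had no overlap between these groups at 120 h, where 22.3% of all genes had none, and 5 of 9 at 144 h, where 37.8% had none. At 48 h 2 of 7 tested members had none (11.9% of all genes), at 72 h 2 of 8 (15.2%) and at 96 h 2 of 9 (23.9%).

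The level of H2bc14, read as the share of emiRFP-line RNA in the WT–mCherry libraries, moved with this comparison. H2bc14 in WT–mCherry libraries beside p53KO cells was 7.46%, 3.01% and 6.66% of its level in the p53KO–emiRFP libraries of the same gastruloids at 120 h, and 16.9%, 2.39% and 9.23% at 144 h. In all-WT gastruloids the share was 1.16% to 2.11% at 120 h and 0.191% to 2.12% at 144 h. At 48 h it was 0.299% to 0.410% beside p53KO cells and 0.534% to 0.722% beside WT cells. The part of emiRFP-line RNA in the differences of Msx1, Id3, Msx2 and Id2 between WT–mCherry populations was not tested. Expression of H2bc14 by the sorted WT–mCherry cells themselves was not tested either.

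The third comparison, WT–emiRFP against WT–mCherry cells of the same all-WT gastruloids, gives the distance between 2 WT clones, and it shares its groups with the comparisons above. At 144 h Id1, Id2 and Id3 were lower in WT–emiRFP cells, 3 of 9 genes where 23.8% of all genes differed. Their log2 fold changes were -0.69 ± 0.16, -0.46 ± 0.07 and -0.71 ± 0.10, with edgeR adjusted p = 0.0059, 0.00037 and 0.00043. The p53KO difference of the Id genes at 144 h is therefore larger against WT–emiRFP than against WT–mCherry cells: Id2 averaged 3423 normalized counts in p53KO–emiRFP cells, 1385 in the WT–emiRFP and 1902 in the WT–mCherry cells of all-WT gastruloids. Msx1 had a log2 fold change of -0.48 ± 0.19, which passed with the block (edgeR adjusted p = 0.021) and not without it (0.085). At 96 and 120 h none of the 9 was called by edgeR or DESeq2 (2.15% and 1.22% of all genes by edgeR). At an unadjusted edgeR p under 0.05 stood 0 and 2 of the 9, beside 2969 of 18356 and 2661 of 18901 tested genes. At 120 h Msx1 (edgeR adjusted p = 9.7e-05) and Id1 (0.019) passed with the block, both lower in WT–emiRFP cells. Marker lists moved with the Id genes between the clones at 144 h. In WT–emiRFP cells 7 of 8 naive pluripotency genes were higher (sums of 80595 to 94003 against 57552 to 63754), while 4 of 8 paraxial mesoderm genes (5099 to 6801 against 9271 to 12744), 5 of 8 tested dorsal neural tube and neural crest genes (1799 to 2184 against 3598 to 4315) and 4 of 7 spinal cord genes (16875 to 19804 against 18952 to 21039) were lower. Of 9 haematoendothelial genes 1 was higher and 1 lower, and of 9 lateral plate and cardiac genes 1 was higher. Their part in the differences of the Id genes was not tested.

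Earlier, Bmp4 was higher in WT–emiRFP than in WT–mCherry mES cells, at 1100.2, 1082 and 1099 against 619.9, 737 and 825 normalized counts (log2 fold change of 0.59 ± 0.12, edgeR adjusted p = 0.0067), 1 of 9 genes against 11.1%. This call was lost without replicate 2 (0.18). At 48 h the WT–emiRFP libraries had less Bmp7, with a log2 fold change of -0.46 ± 0.12 (edgeR adjusted p = 0.02), and at 72 h, with one of -0.33 ± 0.08 (edgeR adjusted p = 0.029). Id2 was lower at 48 h, with a log2 fold change of -0.31 ± 0.09 (edgeR adjusted p = 0.047). These were 2 of 7 tested genes at 48 h and 1 of 8 at 72 h, against 8.90% and 7.64% of all genes, and each of the 3 calls was lost without any 1 replicate, at adjusted p from 0.08 to 0.25. Of the 8 naive pluripotency genes 5 were lower and none higher in WT–emiRFP cells at each of these times, with median log2 fold changes of -0.47 and -0.52. Their part in the differences of Bmp7 and Id2 was not tested.

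The rest of the pathway was read from lists of genes chosen with earlier results of these data known. Of all tested genes 27.3% were higher and 23.7% lower in p53KO–emiRFP cells at 120 h, and 33.2% and 32.2% at 144 h, 51.0% and 65.4% in all. The lists were not tested against other genes. Of 10 receptors and co-receptors, 5 were higher and 2 lower at 120 h where p53KO–emiRFP cells were set against WT–emiRFP cells, and 8 higher and 1 lower at 144 h (7 higher at 120 h with the block), with median log2 fold changes of 0.34 and 0.60 against 0.05 and 0.01 for all tested genes. Rgma, a co-receptor of BMPs, was among the higher at 120 h (0.82) and at 144 h (4644 against 1642 normalized counts, log2 fold change of 1.50 ± 0.14 at 144 h, edgeR adjusted p = 4.9e-07), as was Acvr2a, a type II receptor, at 144 h (1.04). Eng, the endoglin co-receptor of endothelium, was the lower one at 144 h (205 against 1793 normalized counts, log2 fold change of -3.13 ± 0.10), and at 120 h Eng (-2.88) and the endothelial receptor gene Acvrl1 (-1.01) were. Of the 4 SMAD genes of this branch, 3 were higher at each time and Smad9 was lower at 144 h. Smad5 had a log2 fold change of 0.46 at 120 h and 1.01 at 144 h, and Smad4 0.28 and 0.50, and Smad1 was higher by 0.25 at 120 h. Smad9 had -0.83 at 144 h.

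Of 14 genes of secreted antagonists other than Nog, 13 were tested at each time. Of these 6 were higher and none lower at 120 h, and 8 were higher and 1 lower at 144 h, with median log2 fold changes of 0.49 and 0.89, beside 51.0% and 65.4% of all genes called. Chrd, which encodes Chordin, led at 120 h (387 against 135 normalized counts, log2 fold change of 1.52 ± 0.14, edgeR adjusted p = 7.6e-07), followed by Sost (1.14) and Nbl1 (1.08). Cer1, which encodes Cerberus, an inhibitor of BMP, Nodal and Wnt ligands, led at 144 h (394 against 6.49 normalized counts, log2 fold change of 5.93 ± 0.33, edgeR adjusted p = 3.4e-09). Sost (3.24) and Chrdl1 (2.46) followed it. Among 10 other ligand genes 7 were tested, with 1 higher and 2 lower at 120 h and 2 higher and 2 lower at 144 h. Bmp8a and Bmp8b were lower at both times (log2 fold changes of -1.56 and -0.61 at 120 h, and of -2.05 and -1.34 at 144 h), Gdf6 was higher at 120 h (1.42), and Bmp3 was higher at 144 h (475 against 45.5 normalized counts, log2 fold change of 3.37 ± 0.41).

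Of 10 other BMP-responsive genes, 2 were higher and 6 lower at 120 h, with 9 tested, and again at 144 h, with 10 tested. Their medians were -0.83 and -0.79, and of all genes 23.7% and 32.2% were lower. Dlx5, a homeobox gene, was higher at both times (2.41 and 2.81), and Atoh8 was at 144 h (2.55). Tfap2c, a gene of germ-line and trophoblast cells, was lower at 120 h (1438 against 6857 normalized counts, log2 fold change of -2.25 ± 0.09), as was Gata2 (-2.37), and Hand1, which the lateral plate list below also holds, was lower at 144 h (-2.59). Feedback inhibitors were split, with 2 higher and 2 lower at 120 h and 2 higher and 3 lower at 144 h. Bambi, a decoy receptor, was higher (0.56 and 0.45), while Smad7, an inhibitory SMAD, was lower at both times (707 against 2265 normalized counts, log2 fold change of -1.68 ± 0.14 at 144 h, edgeR adjusted p = 1.3e-07). Smurf2 was higher by 0.21 at 120 h, and Smad6 had a log2 fold change of -0.38 at 144 h.

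**Figure D4:**
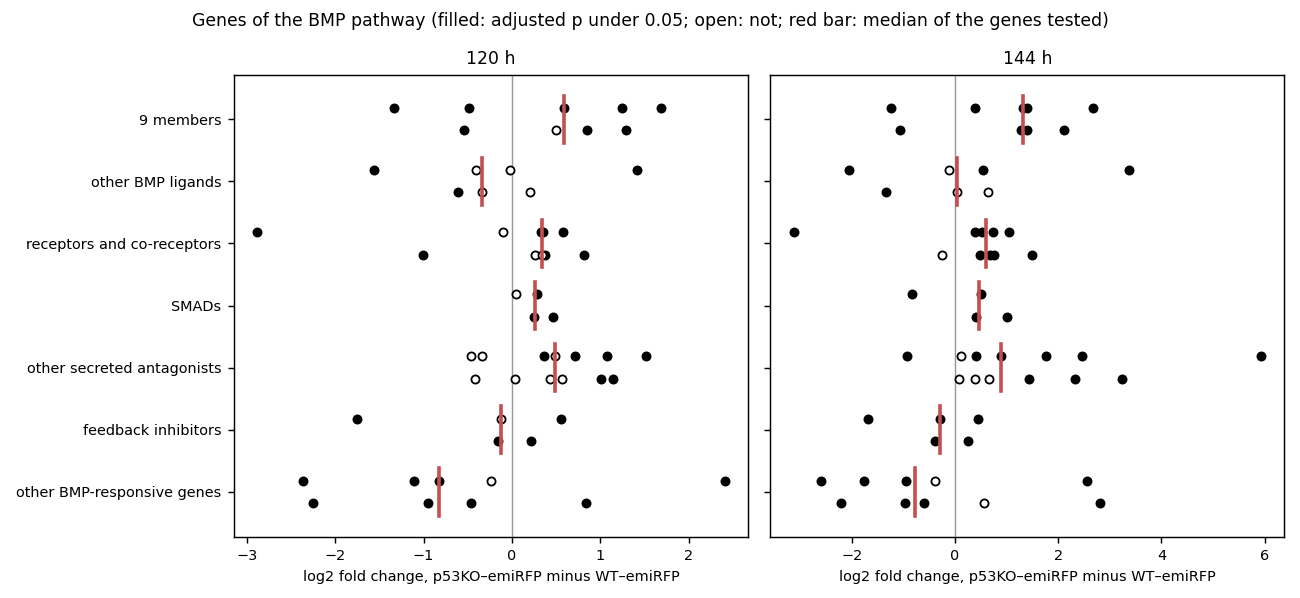
Log2 fold change of each tested gene in p53KO–emiRFP minus WT–emiRFP cells at 120 h (left) and 144 h (right), one row per list; filled points have an adjusted p under 0.05, red bars are medians. The median of the 9 members is 0.59 and 1.31, that of the secreted antagonists 0.49 and 0.89, and that of other BMP-responsive genes -0.83 and -0.79.

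Markers of cell types moved with these differences. The 8 naive pluripotency genes summed to 11016 to 11706 normalized counts in p53KO–emiRFP cells and 61034 to 70566 in WT–emiRFP cells at 120 h, and to 13359 to 20347 against 80595 to 94003 at 144 h, all 8 lower at both times. The 8 paraxial mesoderm genes summed to 50043 to 63060 against 15712 to 21534 at 120 h and to 29217 to 37911 against 5099 to 6801 at 144 h, with 4 and then 8 of 8 higher. The 9 haematoendothelial genes summed to 985 to 1303 against 5773 to 5908 at 120 h, with 5 lower of 8 tested, and to 1906 to 2392 against 7715 to 7739.8 at 144 h, with 4 lower of 9 tested. Hbb-bh1 had no count in p53KO–emiRFP or WT–emiRFP libraries at 120 h. The 9 genes of dorsal neural tube and neural crest summed to 2606 to 2689.8 against 1223 to 1432.5 at 120 h, with 3 higher and 2 lower of 7 tested, and to 4445 to 4724 against 1799 to 2184 at 144 h, with 4 higher and 2 lower of 8 tested and no count of Foxd3 in p53KO–emiRFP cells. The 7 spinal cord genes summed to 6824 to 7726 against 12874 to 14996 at 120 h (1 higher, 1 lower) and to 13804 to 15832 against 16875 to 19804 at 144 h (4 higher, 1 lower). Sox2 alone held 4781 to 5255 against 11254 to 13244 of these at 120 h and 7374 to 8304 against 14622 to 17634 at 144 h. The median log2 fold changes of the list were 0.28 and 0.56, so its sums and medians went opposite ways. The 9 genes of lateral plate and cardiac mesoderm summed to 839 to 988 against 612 to 816 at 120 h, with 4 higher, 2 lower and a median log2 fold change of 0.81, and to 634 to 743 against 798 to 1403 at 144 h, with 2 higher, 4 lower and a median of -0.54. Earlier, 5 of the 8 naive pluripotency genes were lower at 72 h and 8 at 96 h, with none higher and median log2 fold changes of -0.41 and -1.16. Of the 8 paraxial mesoderm genes none was called at 72 h, and 4 were lower and none higher at 96 h. With the block 5 of them were lower and 1 higher at 96 h. The part of these cell types in the differences of the BMP genes was not tested.

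The same lists were read in WT–mCherry cells. The paraxial mesoderm genes summed to 31411 to 39024 beside p53KO cells against 19386 to 26628 beside WT cells at 120 h, with 4 of 8 higher and none lower, and to 6506 to 12292 against 9271 to 12744 at 144 h, where 3 genes were higher and 1 lower with a median log2 fold change of 0.46, or 4 higher and 3 lower with the block. The naive pluripotency genes summed to 41198 to 44401 against 47797 to 60101 at 120 h, with 2 of 8 lower, and to 62423 to 72382 against 57552 to 63754 at 144 h, with none called without the block and 5 of 8 higher with it. The haematoendothelial genes summed to 3015 to 3372 against 4059.7 to 4771 at 120 h (3 lower of 8 tested) and to 5914 to 6408 against 5719 to 6175 at 144 h (3 lower of 9, or 1 higher and 4 lower with the block). The lateral plate and cardiac genes had none called at 120 h (748 to 1114 against 553 to 936, median log2 fold change of 0.40) and 1 higher of 9 at 144 h (1039 to 2369 against 511 to 1276, median of 0.69), where 4 were higher with the block. At 120 h 1 of 7 tested genes was lower in each of the spinal cord and the dorsal neural lists. At 144 h the spinal cord genes were lower in 5 of 7 cases (14176 to 17603 against 18952 to 21039). The dorsal neural tube and neural crest genes summed to 1658 to 2181 against 3598 to 4315 at 144 h, with 3 lower of 8 tested, or 6 with the block. The part of these genes' cells in the differences of Id2, Id3, Msx1 and Msx2 was not tested.

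For each gene the 3 genes with the most similar pattern over the 23 group means were looked up among 14088 genes averaging at least 50 normalized counts, as a description. Bmp2 ran closest to Ncoa6, Ccdc82 and Cacna1c (Pearson r of 0.985 to 0.977), Bmp4 to Xaf1, Lgals3 and Lzts3 (0.963 to 0.942), and Bmp7 to B3gat3, Dap and Tcaf1 (0.975 to 0.972). Id1 ran closest to Epha4, Hdhd5 and Irf9 (0.986 to 0.947), Id2 to Nuak2, Ctif and Ppp1r9b (0.964 to 0.954), and Id3 to Plod1, Zfp46 and Ext2 (0.935 to 0.924). Msx1 ran closest to Rmi2, Col24a1 and Mnx1 (0.957 to 0.948), and Msx2 to Ttll3, Nudt4 and Epb41l1 (0.969 to 0.958). Nog averaged too few counts for this. Among the members themselves Id1 and Id3 (0.85) and Bmp2 and Bmp7 (0.85) were the most alike, and Bmp4 and Msx1 the least (-0.35). The group means share libraries, time points and size factors.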

How the data were processed

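RNA-seq counts of sorted cells were analysed. Per the study's methods, reads were trimmed with Trim Galore 0.6.7 and aligned with STAR 2.7.11b to GRCm38.p6, and the deposited values are raw counts per gene symbol for each library; which strand column was taken is not given in the sources used here. The gene models and exonic lengths came from Gencode M21 on GRCm38, in which 96.4% of the symbols were found.

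Counts were divided by median-of-ratios size factors over the 69 libraries. For each time point, genes passing edgeR's filterByExpr entered edgeR 4.0.16 quasi-likelihood fits (R 4.3.3) of all libraries of that time. Steps in time and the change of the p53KO difference were tested in a fit of all 69. P-values were adjusted by Benjamini–Hochberg over all tested genes, and calls had an adjusted p under 0.05. The script was tested on simulated data. Alternatives were TMM normalization, no filter, the compared groups alone, all libraries, the replicate block, DESeq2 1.42.0, a minimum log2 fold change of 1 and leaving out each replicate.

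Replicates with the same number deviated together, with correlations over 14088 genes of 0.0373 to 0.687 in 51 pairs, and the study took its samples from 3 experiments separated in time. All pairs passed 0.1 except 1 pair each in WT–mCherry cells at 120 h and between the WT clones at 0 and 72 h, so for these 3 comparisons blocked values are given only in the closing section. For the others, blocked values that changed the call of a member are given beside it.

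The members and lists were chosen with earlier results of these data known. All 9 members are named, and of each other pathway list up to 3 genes per time, those past the threshold with the largest absolute log2 fold change in p53KO–emiRFP against WT–emiRFP cells at 120 and at 144 h. Bmp2 at 48 h and Nog at 48 and 72 h had too few counts to be tested, and low counts limit their precision elsewhere.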

Additional observations from a re-analysis of the deposited data

Results flagged for a closer look

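The p53KO difference, that is p53KO–emiRFP minus WT–emiRFP cells on the log2 scale, changed with time for 9 results, each by a test of the change itself across all genes. Between 48 and 120 h it changed by -0.96 ± 0.20 for Bmp4, by 0.99 ± 0.17 for Bmp7, by 0.96 ± 0.26 for Msx1 and by -1.77 ± 0.36 for Msx2, 4 of the 9 genes where 36.6% of all genes changed. The edgeR adjusted p-values were 7e-05, 4.4e-06, 0.0024 and 6.7e-05. Between 120 and 144 h it changed by 0.86 ± 0.30 for Bmp2, 0.90 ± 0.31 for Nog, 1.80 ± 0.21 for Id2, 0.55 ± 0.19 for Id3 and 0.99 ± 0.26 for Msx1, 5 of the 9 where 16.9% of all genes changed. The edgeR adjusted p-values were 0.037, 0.037, 2.9e-09, 0.04 and 0.0041. Bmp4 had a change of -0.52 ± 0.19 in that interval, which passed with the replicate block (edgeR adjusted p = 0.041) and not without it (0.051).

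Of these, Bmp4, Bmp7, Msx2 and Id2 stayed past the threshold without each replicate in turn. Msx1 was lost without replicate 2 in both intervals (edgeR adjusted p = 0.088 and 0.085). Bmp2 was lost without replicate 1 (0.18) or 3 (0.3), Id3 without replicate 1 (0.12) or 2 (0.32), and Nog without replicate 1 (0.13), 2 (0.053) or 3 (0.39). WT–emiRFP replicate 3 at 144 h had 25.4 normalized counts of Bmp2 where replicates 1 and 2 had 73.3 and 85.3.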

How the results depend on the processing

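No direction of a called difference turned under any alternative, and the counts of members called at 120 and 144 h in p53KO–emiRFP against WT–emiRFP cells (8 and 9) stayed when any replicate was left out. Without replicate 3 the 8 at 120 h held Nog in place of Id2. Below, counts are of members called, for p53KO–emiRFP against WT–emiRFP (KO), WT–mCherry beside p53KO against beside WT (neighbour) and WT–emiRFP against WT–mCherry (clone) cells. Requiring an absolute log2 fold change of at least 1 gave 1, 0, 0, 4 and 8 for KO at 48, 72, 96, 120 and 144 h, where Bmp7 was the one lost at 144 h, 0 for neighbour at 120 and 144 h, 0 for clone at 0, 48, 72 and 144 h, 5, 5, 2 and 1 for WT steps ending at 72, 96, 120 and 144 h, and 1 for each change of the p53KO difference. Without a low-count filter there were 1 and 4 for KO at 0 and 96 h, 1 and 6 for neighbour at 96 and 120 h, and 2, 1, 2 and 5 for clone at 0, 48, 120 and 144 h. DESeq2 gave 1 and 2 for KO at 0 and 96 h, 1 and 5 for neighbour at 96 and 120 h, and 2 and 4 for clone at 0 and 144 h, where it added Msx1 at 144 h (adjusted p = 0.047). It gave 6 for the WT step ending at 144 h, without Bmp2 (0.059). At equal counts DESeq2 held Id2 (0.045) in place of Msx2 (0.074) for KO at 72 h, and Bmp4 (0.037) in place of Bmp2 (0.051) for the change of the p53KO difference from 120 to 144 h. A fit of all 69 libraries gave 1 and 0 for KO at 0 and 96 h and 2 and 1 for clone at 0 and 48 h, and a fit of the compared groups alone gave 0 for clone at 48 and 72 h. The replicate block gave 4, 4 and 9 for KO at 72, 96 and 120 h (39.0%, 38.6% and 61.7% of all genes). For neighbour at 96, 120 and 144 h it gave 2, 7 and 4 (20.8%, 20.2% and 37.3%). For clone it gave 2 each at 0, 72 and 120 h and 4 at 144 h (17.3%, 16.2%, 10.8% and 33.9%). It gave 8 for the WT step ending at 144 h (59.1%). For the change of the p53KO difference from 120 to 144 h it gave 6, where 4646 of all 21121 tested genes passed. In neighbour at 120 h it added Bmp7 (edgeR adjusted p = 0.0074), Nog (0.022) and Id1 (0.0059) upward and Id2 downward (0.0019), and in clone it added Msx2 downward at 0 h (0.014) and 72 h (0.04). The block ended no call of a member. Leaving out 1 replicate gave 0 to 1 for KO at 0 h, 3 to 4 at 48 h, 1 to 2 at 72 h and 0 to 1 at 96 h, 0 to 2 for neighbour at 120 h and 1 to 2 at 144 h, 0 to 3 for clone at 0 h, 0 at 48 h and 0 to 1 at 72 h, and 3 to 5 and 2 to 4 for the changes of the p53KO difference from 48 to 120 h and from 120 to 144 h. TMM normalization left 204 of 207 single values on their side of the threshold. Nog and Bmp2, with under 10 normalized counts in most libraries at 48 h, are limited by depth there. The cause of these moves was not tested.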
